A study of Homo sapiens with 8 samples.

Results

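The genes described here are 36 interferon-stimulated and RNA-sensing genes, chosen by name as genes that interferons induce or whose proteins detect foreign RNA. They were measured in LNCaP cells, a human prostate cancer line that came from a lymph node metastasis, 72 h after transfection with 30 nM siRNA against GATA2 (siGATA2) or scrambled control siRNA (siControl). GATA2 is a zinc finger transcription factor, and the comparison asks which genes respond when it is silenced. Each group holds 4 one-colour Agilent arrays, labelled as replicates. All cells were grown in medium with serum and received an siRNA, with no interferon or virus named. No array of cells that received no siRNA was analysed here, so a response that both siRNAs share cannot be seen. Of the 36 genes, 35 had a matched probe (42 probes in all), IFI27 had none, and SAMD9 was too dim to be tested, which left 34 of the 28850 genes tested.

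Interferons are secreted proteins that warn cells of infection. They bind receptors whose kinases, JAK1 among them, phosphorylate STAT proteins. STAT2 and IRF9 are parts of the factor ISGF3, which binds the interferon-stimulated response element in the promoters of target genes. Another sequence, the gamma-activated site, serves the response to gamma interferon. The sensors RIG-I, MDA5 and TLR3 detect foreign RNA and switch on interferon genes, and the products of the target genes cut RNA, hold back virus particles, stop translation or load peptides for T cells. LNCaP cells are known for a weak response to interferon and for little JAK1.

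The promoters of the members were examined for these elements in the RefSeq promoter windows of build GRCh38.p14, which run from 250 bases before to 50 bases after a start site and hold 29 of the 36 members. IRF7, IFIT2, OAS2, OASL, USP18, MX2 and GBP2 have no entry in the table used. The core of the interferon-stimulated response element, searched as GAAANNGAAA on both strands, lay in the windows of 21 of the 29 members, against 3.57% of all 35116 promoter windows. Both groups of called genes held it, with 6 of 6 members called lower and 2 of 2 called higher, while it lay in 11 of the 19 that were not called. The gamma-activated site, searched as TTCNNNGAA, which reads the same on both strands, lay in 11 of the 29 members, among them TLR3, TAP1 and BST2, against 7.66% of all windows. The 2 elements overlap in BST2, IFI27 and MX1. A member was counted when any of its windows held the element, while the shares of all windows count each window singly, so the 2 are not like for like. A match is a description of letters and was not tested as a binding site.

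The 150 bases before the start site are shown for 7 called genes, to set the promoters of genes that were lower (IFI44, IFIT1, OAS3, GBP1, TAP1) beside those of genes that were higher (ISG15, BST2), with each response element core in capitals. They run 5′ to 3′ on the strand of the gene. IFI44 lies at chr1:78649639-78649788 on the + strand, IFIT1 at chr10:89392473-89392622 on the + strand, OAS3 at chr12:112938324-112938473 on the + strand, GBP1 at chr1:89065209-89065358 on the - strand, TAP1 at chr6:32853705-32853854 on the - strand, ISG15 at chr1:1013347-1013496 on the + strand and BST2 at chr19:17405631-17405780 on the - strand.
IFI44: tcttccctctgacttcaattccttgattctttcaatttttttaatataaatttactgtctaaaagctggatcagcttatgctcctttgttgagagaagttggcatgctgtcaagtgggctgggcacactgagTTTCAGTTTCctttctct
IFIT1: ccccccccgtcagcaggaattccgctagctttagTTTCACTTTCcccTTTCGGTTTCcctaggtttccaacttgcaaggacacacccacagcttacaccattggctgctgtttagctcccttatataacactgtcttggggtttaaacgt
OAS3: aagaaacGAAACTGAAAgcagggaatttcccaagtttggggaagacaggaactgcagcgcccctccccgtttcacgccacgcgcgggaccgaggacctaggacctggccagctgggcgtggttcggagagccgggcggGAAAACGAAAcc
GBP1: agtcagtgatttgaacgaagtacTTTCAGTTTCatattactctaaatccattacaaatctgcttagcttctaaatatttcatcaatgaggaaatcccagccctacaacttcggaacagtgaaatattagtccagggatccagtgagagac
TAP1: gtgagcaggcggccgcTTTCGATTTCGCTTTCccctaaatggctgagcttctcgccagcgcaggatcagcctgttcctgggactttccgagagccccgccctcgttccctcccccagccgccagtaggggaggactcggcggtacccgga
ISG15: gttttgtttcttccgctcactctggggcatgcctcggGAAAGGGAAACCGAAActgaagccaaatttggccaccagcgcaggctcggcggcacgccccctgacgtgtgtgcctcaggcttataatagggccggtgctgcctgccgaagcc
BST2: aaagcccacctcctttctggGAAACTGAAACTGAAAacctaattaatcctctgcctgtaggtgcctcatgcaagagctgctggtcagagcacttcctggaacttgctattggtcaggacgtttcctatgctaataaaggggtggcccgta

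The capitals show that genes that moved in opposite directions carried the same core. In ISG15, BST2 and TAP1 there were 2 overlapping copies that form 1 run of capitals, and IFIT1 and OAS3 had 2 separate copies. IFI44 and GBP1 had 1 copy each. The core of TLR3 begins 4 bases before the start site and runs past it, so it is not shown.

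Before the comparison the targeted gene was examined, since it checks the labels. The log2 signal of GATA2 was 12.61, 12.54, 11.57 and 11.40 on the arrays labelled siGATA2 and 11.74, 11.28, 11.10 and 11.29 on the siControl arrays. It was not lower in the arrays labelled siGATA2, with a log2 difference of 0.68 ± 0.31 (SE, limma adjusted p = 0.154, n = 4 and 4). Every direction below is therefore that of the arrays labelled siGATA2 against the arrays labelled siControl.

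The arrays were not equal in quality. Of 42405 probes, between 24438 and 37033 were well above background on an array, with the lowest numbers on siControl arrays 3 (24438) and 1 (28560), and no probe was saturated. Markers of LNCaP cells such as KLK3 and KRT18 were above background on all arrays for 10 of 10 genes, while of 7 leukocyte markers LYZ was too dim to be tested and PTPRC and CD68 were called higher. The summed signal of the 6 leukocyte markers tested, as the log2 of their sum, was 10.4 to 10.7 on the arrays labelled siGATA2 and 9.70 to 9.95 on siControl arrays, and its part in the results below was not tested. Of the other markers, THY1 of fibroblasts was called higher and VWF of endothelium lower. In a whole culture, less RNA per cell and fewer cells that express a gene cannot be told apart.

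Of the 34 members tested, 7 were lower and 2 were higher in the arrays labelled siGATA2 (limma, Benjamini-Hochberg adjusted p under 0.05 over all genes). The lower members were IFI44, TLR3, GBP1, IFIT1, OAS3, USP18 and TAP1, and the higher members were BST2 and ISG15. Over all 28850 genes, 14.2% were called lower and 12.3% higher, beside 20.6% and 5.88% of the members, and nothing particular to the members is drawn from these counts. With a change of at least 2-fold as well, 5 members were lower (14.7%, against 7.13% of all genes) and 1 was higher (2.94%, against 4.52%). All arrays labelled siGATA2 lay below all siControl arrays for 6 members (against 16.5% of all genes) and above them for 4 (against 16.2%). The median log2 difference of the 34 members was -0.28, beside 0.09 over all genes tested. Below 0 lay 22 members and above it 12, beside 12462 and 16386 of the 28850 genes tested. The plot by role gives the difference of each member within its family.

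**Figure D1:**
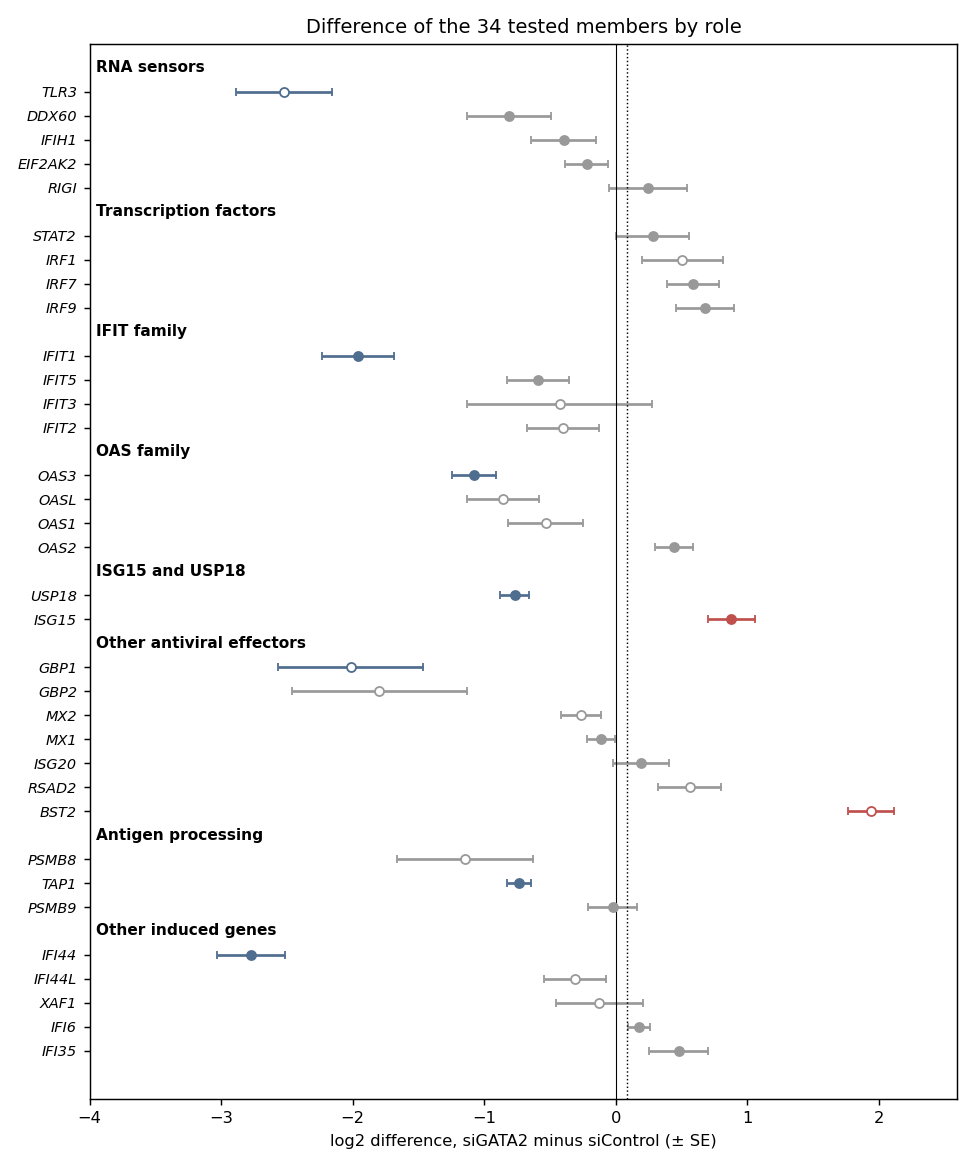
Log2 difference between arrays labelled siGATA2 and siControl arrays (x axis, ± SE) of each of the 34 members tested (y axis), ordered by role. Blue members were called lower and red members higher, grey ones were not called, open points mark probes not well above background on 1 or more of the 8 arrays, and the dotted line is the median of all genes tested (0.09). IFI44 lies at -2.78 and BST2 at 1.94.

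Among the RNA sensors only TLR3 passed the test. TLR3 sits in endosomes and detects double-stranded RNA. Its log2 signal was 2.90, 2.29, 2.05 and 1.97 on the arrays labelled siGATA2 and 4.42, 5.58, 4.08 and 5.23 on the siControl arrays, so the groups did not overlap. The measured log2 difference was -2.52 ± 0.36 (SE, limma adjusted p = 0.00155). No array labelled siGATA2 and only 2 of 4 siControl arrays detected the probe well above background, so the size of the fall is uncertain and no fold is given. With normexp background correction in place of the processed signal the difference was -0.57 (limma adjusted p = 0.00429).

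The cytoplasmic sensors did not pass the test. IFIH1 encodes MDA5, which binds long double-stranded RNA, and read 8.44, 8.39, 9.13 and 9.04 on the arrays labelled siGATA2 against 8.71, 9.48, 8.96 and 9.44 on siControl arrays, a log2 difference of -0.40 ± 0.25 (SE, limma adjusted p = 0.289). EIF2AK2 encodes PKR, the kinase that stops translation when it binds double-stranded RNA, and read 11.35, 11.47, 11.91 and 11.90 against 12.10, 11.81, 11.76 and 11.84, a log2 difference of -0.22 ± 0.16 (SE, limma adjusted p = 0.368). RIGI encodes RIG-I, which recognizes RNA with triphosphate ends, and read 9.95, 9.93, 9.14 and 9.12 against 9.93, 8.89, 9.23 and 9.09, a log2 difference of 0.25 ± 0.30 (SE, limma adjusted p = 0.573). The groups overlapped for each of these sensors. DDX60, a helicase linked to RIG-I-like sensing, had a log2 difference of -0.81 ± 0.32 (SE, limma adjusted p = 0.102), and passed without siControl array 1 (-1.05, limma adjusted p = 0.0263). A second RIGI probe had a difference of -0.09 ± 0.20 (SE, limma adjusted p = 0.772 over all probes).

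The transcription factors of the pathway had positive differences, none of which passed the test, and with arrays scaled to the E1A spike-in probes those of STAT2 and IRF7 were negative (-0.39 and -0.09). STAT2 read 13.39, 13.35, 12.52 and 12.63 on the arrays labelled siGATA2 and 13.26, 12.47, 12.59 and 12.44 on siControl arrays, a log2 difference of 0.28 ± 0.27 (SE, limma adjusted p = 0.487). IRF9 read 9.68, 9.59, 9.15 and 8.91 against 9.08, 8.61, 8.38 and 8.55, a log2 difference of 0.68 ± 0.22 (SE, limma adjusted p = 0.0575). For IRF9 only siControl array 1 reached into the range of the other group. IRF7, the factor that amplifies interferon production, read 13.59, 13.54, 12.96 and 13.02 against 13.03, 12.54, 12.68 and 12.51, a log2 difference of 0.59 ± 0.20 (SE, limma adjusted p = 0.0626). IRF1, a factor that gamma interferon induces, read 6.12, 6.22, 6.99 and 6.77 against 5.31, 6.42, 5.92 and 6.43, a log2 difference of 0.51 ± 0.31 (SE, limma adjusted p = 0.269).

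Within a group the sensors and factors differed between arrays in a shared way. On the arrays labelled siGATA2, replicates 1 and 2 read nearly alike and so did replicates 3 and 4. STAT2, RIGI, IRF7 and IRF9 were higher on replicates 1 and 2, and IFIH1, EIF2AK2, DDX60 and IRF1 were lower there. Among siControl arrays, replicate 1 was the highest for STAT2, RIGI, IRF7 and IRF9 and the lowest for IFIH1, DDX60 and IRF1, while EIF2AK2 was highest there. The sample titles give these 3 arrays the letters A and B and the other arrays D to G, and what the letters stand for is not stated. With the 2 sets of letters as a block, an alternative chosen after the data were seen, IRF9 (0.53, limma adjusted p = 0.00290), IRF7 (0.46, limma adjusted p = 0.00174) and IRF1 (0.71, limma adjusted p = 0.00692) passed the test, and GATA2 did too (0.47, limma adjusted p = 0.0261). DDX60 passed as well, in the lower direction (-0.59, limma adjusted p = 0.0102), and STAT2 and RIGI did not. With array weights the difference of IRF1 was -0.06 (limma adjusted p = 0.809). Within the arrays lettered A and B (2 labelled siGATA2, 1 siControl) the difference of STAT2 was 0.11 and within those lettered D to G (2 and 3) it was 0.07. For IRF9 these differences were 0.56 and 0.52, for IRF7 0.54 and 0.42, for IRF1 0.86 and 0.63, and for GATA2 0.84 and 0.26. Leaving out siControl array 1 also brought IRF9 (0.82, limma adjusted p = 0.0269) and IRF7 (0.70, limma adjusted p = 0.0337) past the threshold, as did leaving out siGATA2 array 4 for IRF9 (0.82, limma adjusted p = 0.0333) and siGATA2 array 3 for IRF7 (0.70, limma adjusted p = 0.0489).

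**Figure D2:**
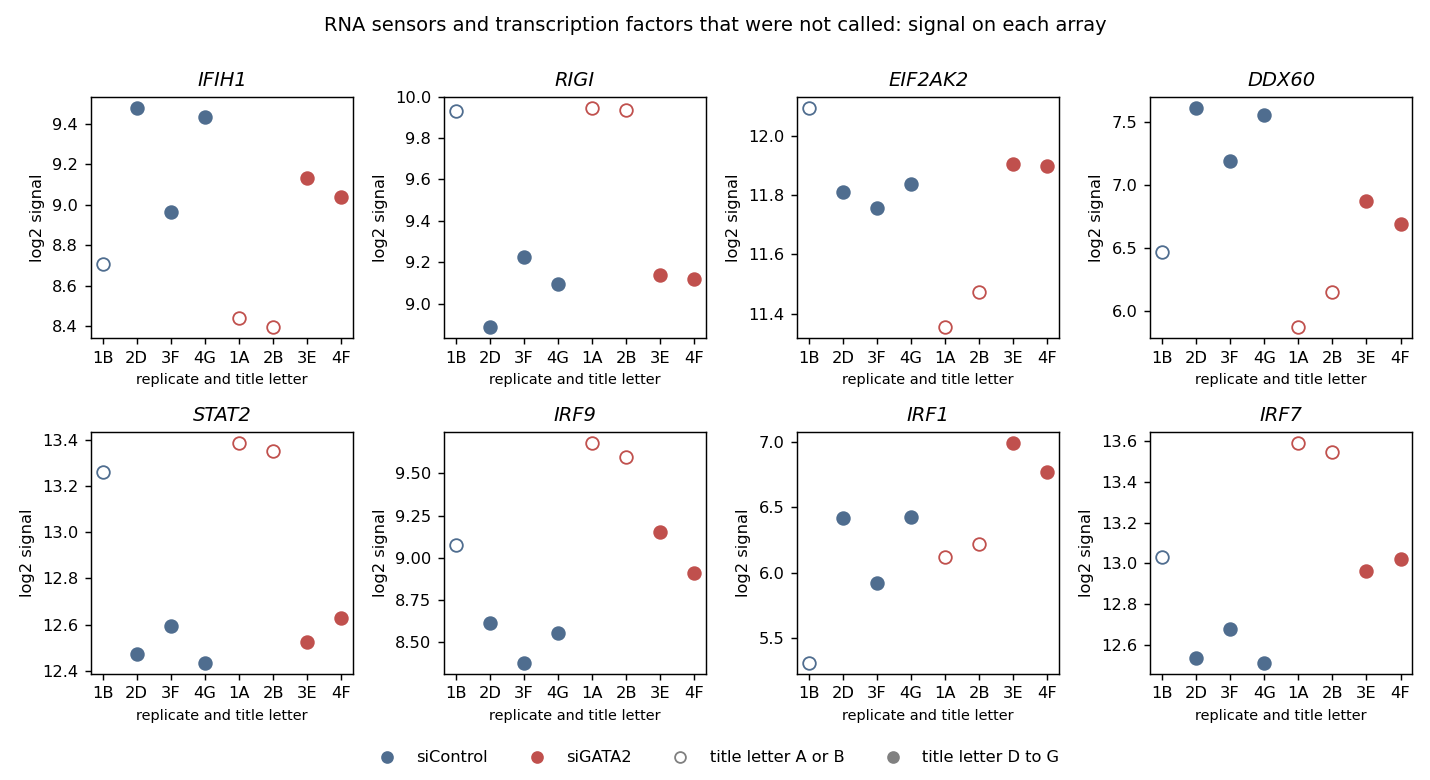
Log2 signal (y axis) of 4 RNA sensors and 4 transcription factors on each of the 8 arrays (x axis, replicate number and title letter), in blue for siControl and red for arrays labelled siGATA2. Open points carry title letter A or B, and for STAT2 the 3 open points lie between 13.26 and 13.39 and the 5 filled points between 12.44 and 12.63.

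The IFIT genes encode proteins that bind RNA with foreign ends and keep it from being translated, and they lie close together on chromosome 10. IFIT1 read 5.17, 5.23, 5.84 and 6.33 on the arrays labelled siGATA2 and 7.32, 7.84, 7.51 and 7.74 on siControl arrays. All arrays labelled siGATA2 were lower, and the log2 difference was -1.96 ± 0.27 (SE, limma adjusted p = 0.00133), a 3.89-fold fall, and -1.14 with normexp background correction. The other 3 were not called. IFIT5 had a log2 difference of -0.59, IFIT3 of -0.43 and IFIT2 of -0.40, with limma adjusted p values of 0.108, 0.686 and 0.320. IFIT5 passed without siGATA2 array 3 (-0.75, limma adjusted p = 0.0491). IFIT3 ranged from 2.05 to 5.30 on the siControl arrays alone and was well above background on only 2 of them. A second, dimmer IFIT2 probe had a positive difference (1.08 ± 0.74, SE, limma adjusted p = 0.322 over all probes).

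The OAS enzymes detect double-stranded RNA and make oligoadenylates that lead to the breakdown of RNA in the cell. OAS3 read 5.96, 6.07, 6.43 and 6.30 on the arrays labelled siGATA2 and 6.88, 7.35, 7.43 and 7.40 on siControl arrays. The groups did not overlap, and the log2 difference was -1.08 ± 0.17 (SE, limma adjusted p = 0.00223), a 2.11-fold fall, and -0.65 with normexp background correction, while a dim second OAS3 probe read -0.14 ± 0.23 (SE, limma adjusted p = 0.698 over all probes). OAS2 had a positive difference that did not pass the test, at 6.66, 6.69, 7.08 and 6.90 against 6.12, 6.40, 6.56 and 6.46 (0.45 ± 0.14, SE, limma adjusted p = 0.0554), although all arrays labelled siGATA2 lay above all siControl arrays. OAS2 passed with replicate number as a block (0.45, limma adjusted p = 0.0488), with title letter as a random block (0.45, limma adjusted p = 0.0184) and with the 2 sets of letters as a block (0.53, limma adjusted p = 0.00112). Its 2 other probes had differences of 0.80 (limma adjusted p = 0.0408 over all probes) and 0.11 (limma adjusted p = 0.635). OAS1, dim in both groups, had a log2 difference of -0.53 (limma adjusted p = 0.220), and OASL, a relative without the enzyme activity, one of -0.86 (limma adjusted p = 0.0548). OASL passed with replicate number as a block (-0.86, limma adjusted p = 0.0478) and also without siGATA2 array 4 (-1.04, limma adjusted p = 0.0290) or siControl array 3 (-1.03, limma adjusted p = 0.0312).

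ISG15 and USP18 form a pair: ISG15 is a small ubiquitin-like protein that is attached to other proteins, and USP18 removes it again and also damps the interferon receptor. They moved in opposite directions. ISG15 read 14.96, 15.06, 15.49 and 15.57 on the arrays labelled siGATA2 and 14.09, 14.53, 14.45 and 14.50 on siControl arrays, a log2 difference of 0.88 ± 0.18 (SE, limma adjusted p = 0.00855), or 1.84-fold higher. USP18 read 10.69, 10.71, 10.71 and 10.71 against 11.22, 11.56, 11.56 and 11.54, a log2 difference of -0.77 ± 0.11 (SE, limma adjusted p = 0.00151), or 1.70-fold lower. Neither gene overlapped between the groups. The call of ISG15 was lost without siControl arrays 1 and 3 (0.76 ± 0.21, SE, limma adjusted p = 0.0522).

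BST2, or tetherin, holds budding virus particles at the cell surface, and it rose the most among the members. It read 7.25, 7.29, 7.87 and 7.77 on the arrays labelled siGATA2 and 5.64, 5.73, 5.38 and 5.66 on siControl arrays. The log2 difference was 1.94 ± 0.18 (SE, limma adjusted p = 0.000158), or 3.85-fold, and 1.095 with normexp background correction. All 4 arrays labelled siGATA2 and 3 of 4 siControl arrays detected the probe well above background. The GTPases MX1 and MX2, which block incoming viruses, had log2 differences of -0.11 and -0.26 (limma adjusted p = 0.466 and 0.248), and the exonuclease ISG20 one of 0.19 (limma adjusted p = 0.544). RSAD2 (viperin) was detected above background on 1 array labelled siGATA2 and on none of the siControl arrays, with a log2 difference of 0.56 (limma adjusted p = 0.129). It passed without siControl array 2 (0.75, limma adjusted p = 0.0451) and with title letter as a random block (0.68, limma adjusted p = 0.0477).

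The guanylate-binding proteins GBP1 and GBP2 are GTPases that gamma interferon induces and that attack the vacuoles of microbes. GBP1 read 2.66, 3.62, 4.31 and 3.73 on the arrays labelled siGATA2 and 4.24, 6.52, 5.31 and 6.30 on siControl arrays, so that 1 array of each group overlapped. The log2 difference was -2.01 ± 0.55 (SE, limma adjusted p = 0.0294), and -0.60 with normexp background correction (limma adjusted p = 0.0521). In GBP1, 2 of 4 arrays in each group detected the probe. This call was the least steady of the 9 and was lost without any of siGATA2 arrays 1, 2 and 4 or siControl arrays 2, 3 and 4, with differences from -2.11 to -1.71 and limma adjusted p from 0.0506 to 0.0787. GBP2 read 4.33, 4.13, 5.92 and 6.11 against 5.36, 7.79, 6.91 and 7.61, a log2 difference of -1.80 ± 0.67 (SE, limma adjusted p = 0.0869). Without siControl array 1, GBP2 passed the test too (-2.31, limma adjusted p = 0.0236). It was called lower in 7 alternatives, among them the 2 sets of letters as a block (-1.32, limma adjusted p = 0.0024), E1A scaling and normexp background correction.

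TAP1, PSMB8 and PSMB9 lie side by side on chromosome 6 and serve antigen processing. TAP1, a subunit of the transporter that carries peptides into the endoplasmic reticulum, read 12.33, 12.36, 12.32 and 12.28 on the arrays labelled siGATA2 and 12.98, 13.18, 13.00 and 13.07 on siControl arrays. The replicates lay close together, and the log2 difference was -0.73 ± 0.09 (SE, limma adjusted p = 0.000785), a 1.66-fold fall. The immunoproteasome subunits PSMB8 and PSMB9 did not pass the test, with log2 differences of -1.14 ± 0.52 and -0.02 ± 0.19 (SE, limma adjusted p = 0.148 and 0.943). PSMB8 spanned 5.19 to 7.73 on the siControl arrays, and passed with title letter as a random block (-1.19, limma adjusted p = 0.0479).

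IFI44 was lower in all 23 alternatives run. It is a cytosolic protein that interferons induce and that limits some viruses. It read 3.96, 4.20, 4.53 and 4.24 on the arrays labelled siGATA2 and 6.33, 7.53, 6.99 and 7.19 on siControl arrays, and the probe was well above background on all 8. The log2 difference was -2.78 ± 0.26 (SE, limma adjusted p = 0.000173), a 6.85-fold fall, and -1.23 with normexp background correction. Its paralog and neighbour IFI44L had a log2 difference of -0.31 ± 0.24 (SE, limma adjusted p = 0.380). IFI6 did not pass the test, at 0.18 ± 0.09 (SE, limma adjusted p = 0.170), although its 4 arrays labelled siGATA2 (10.54 to 10.64) lay above the 4 siControl arrays (10.39 to 10.46). IFI35 had a log2 difference of 0.48 and XAF1 of -0.12, with limma adjusted p values of 0.165 and 0.810.

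**Figure D3:**
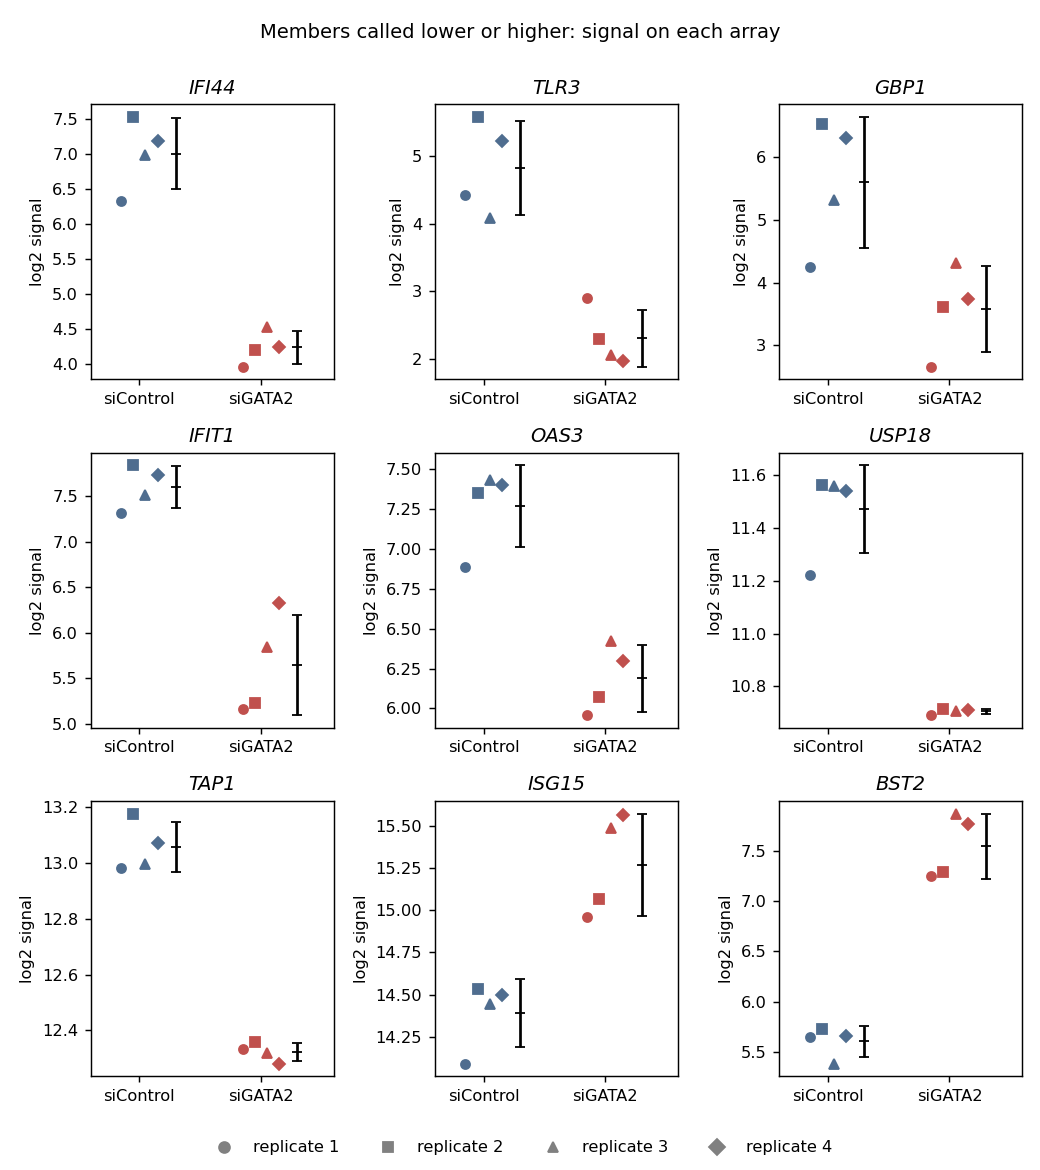
Log2 signal (y axis, each panel with its own range) of the 9 called members on the 4 siControl arrays (blue) and the 4 arrays labelled siGATA2 (red), with a marker shape for each replicate and the group mean ± SD in black. GBP1 overlaps between the groups, and the other 8 do not.

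Several members lie side by side in the genome, which lets neighbours be compared on the same arrays. For the 15 pairs of members whose starts lie within 200000 bases, the difference of the log2 signals was taken on each array and compared between the groups with an exact two-sided permutation test. The smallest p that 4 against 4 arrays allow is 0.0286, and 6 pairs reached it, each with a Benjamini-Hochberg adjusted p of 0.0715 over the 15 pairs, so no pair passed after adjustment. The log2 difference of IFI44 minus that of IFI44L was -2.47. It was -1.56 for IFIT1 against IFIT2 and -1.37 for IFIT1 against IFIT5. It was 1.52 for OAS2 against OAS3, -0.98 for OAS1 against OAS2 and 0.71 for PSMB9 against TAP1. The pairs GBP1 with GBP2 (-0.22, exact p = 0.600) and MX1 with MX2 (0.15, exact p = 0.171) are given beside these. A factor that scales a whole array cancels in such a difference. Background correction and the choice of probe do not. With normexp the difference was -1.11 for IFI44 against IFI44L, -0.90 for IFIT1 against IFIT2 and -0.60 for IFIT1 against IFIT5. It was 0.88 for OAS2 against OAS3, -0.27 for OAS1 against OAS2 and 0.67 for PSMB9 against TAP1. With the mean over the probes of a gene it was -2.30 for IFIT1 against IFIT2 and 1.06 for OAS2 against OAS3. For OAS1 against OAS2 it was then -0.99, and the other differences named here did not change.

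**Figure D4:**
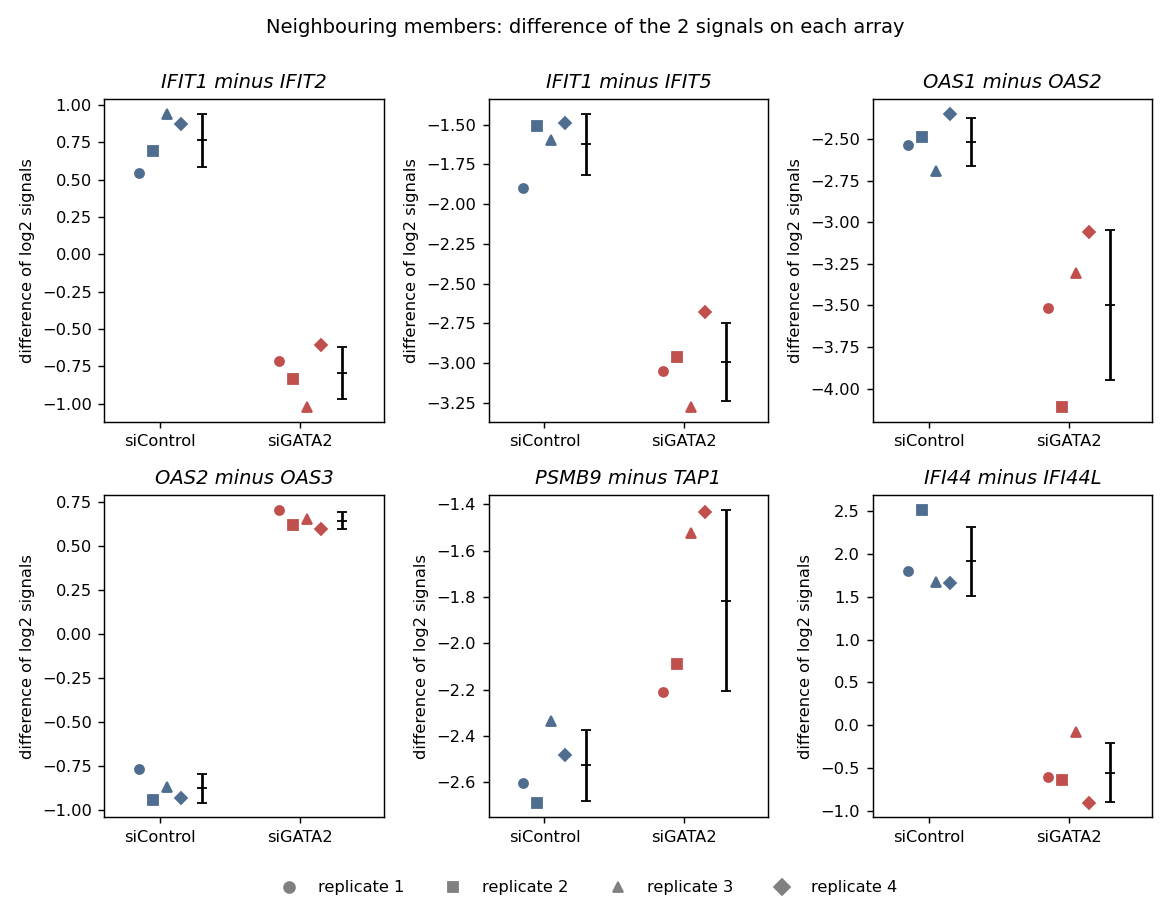
Difference between the log2 signals of 2 neighbouring members on each array (y axis) for the 6 pairs whose groups did not overlap, siControl in blue and arrays labelled siGATA2 in red, with the group mean ± SD in black. The height of a pair depends on its probes, and only the step between groups is compared, which is largest for IFI44 minus IFI44L (-2.47).

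Other genes of the pathway were counted in 8 lists, to be read against the 14.2% of all genes called lower and the 12.3% called higher. Of 9 interferon genes 4 were tested and none was called, and the median log2 difference of the 4 was 0.35. Among 11 receptors and kinases 4 were called higher and none lower. JAK1, a kinase of the interferon receptors, read 6.28, 6.33, 6.10 and 5.65 on the arrays labelled siGATA2 and 5.42, 5.47, 5.28 and 5.41 on siControl arrays, a log2 difference of 0.69 ± 0.16 (SE, limma adjusted p = 0.0150), and was well above background on 4 and 3 of 4 arrays. IL10RB, a chain of the receptor for lambda interferon, rose by 0.80 ± 0.11 (SE, limma adjusted p = 0.00112).

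Of 21 genes of RNA and DNA sensing, 5 were lower and 2 higher. PRKRA, the protein activator of PKR, fell by 1.23 on the log2 scale and IKBKE, a kinase that activates IRF factors, fell by 1.07. ADAR, which edits double-stranded RNA, rose by 0.45. ADAR was not called with arrays scaled to their 75th percentile (0.43, limma adjusted p = 0.0551) or with E1A scaling (-0.26, limma adjusted p = 0.837). IKBKE was not called with E1A scaling (-1.39, limma adjusted p = 0.0803). Of 9 negative regulators 1 was lower (PTPN2, a phosphatase of JAK kinases, -0.33) and 4 were higher. PTPN2 was not called with arrays scaled to their 75th percentile (-0.21, limma adjusted p = 0.183) or with E1A scaling (-0.90, limma adjusted p = 0.353). SOCS3 and SOCS1, inhibitors of JAK kinases, had log2 differences of 2.06 and 1.29, and SOCS3 was well above background on 1 siControl array. Of 46 other interferon-stimulated genes tested, 13 were lower and 6 higher, with TRIM14 (-2.64) and TNFSF10 (-1.71) the lowest and TMEM140 (1.48) and APOBEC3F (0.92) the highest of those called.

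The lists that touch antigen presentation and inflammation divided too. Of 14 genes of antigen presentation 2 were lower and 3 higher. TAP2, the partner of TAP1 in the peptide transporter, fell by 2.22 and ERAP2, which trims peptides, fell by 1.35. TAPBP, which bridges the transporter and class I molecules, rose by 1.14 and the proteasome activator PSME1 by 0.84. ERAP2 was not called with arrays scaled to their 75th percentile (-0.96, limma adjusted p = 0.0917) or with E1A scaling (-1.65, limma adjusted p = 0.0999). TAP2 read 8.69, 8.36, 8.11 and 8.32 on the arrays labelled siGATA2 against 10.98, 10.52, 10.39 and 10.44. None of 3 constitutive proteasome subunits was called, and 1 of 11 NF-kappaB targets was (TNFAIP2, -2.73). Over all 119 genes tested in these lists, 22 were lower and 19 higher, and the median log2 difference was 0.03. With E1A scaling 9 genes of the lists were called lower and 0 higher.

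The called members were recomputed under 23 alternatives of normalization, filter, test, block and array choice. All 9 kept their direction in every alternative that could be fitted. Within the arrays lettered A and B and within those lettered D to G they kept it as well, with IFI44 at -2.25 and -2.85, IFIT1 at -2.12 and -1.61, and BST2 at 1.62 and 2.23. IFI44 and IFIT1 remained called in all 23 and TLR3 in the 22 that kept its probe. OAS3, USP18, TAP1 and BST2 lost their call only when arrays were scaled to the E1A spike-in probes, where the differences were -1.48, -1.39, -1.38 and 1.60 and the SE rose to between 0.47 and 0.54. ISG15 lost it there (0.18) and without siControl arrays 1 and 3. GBP1 remained called in 13 of 22. With array weights, which were highest for siControl arrays 2 and 4, 18 members were lower and 8 higher, beside 26.1% and 27.9% of all genes.

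**Figure D5:**
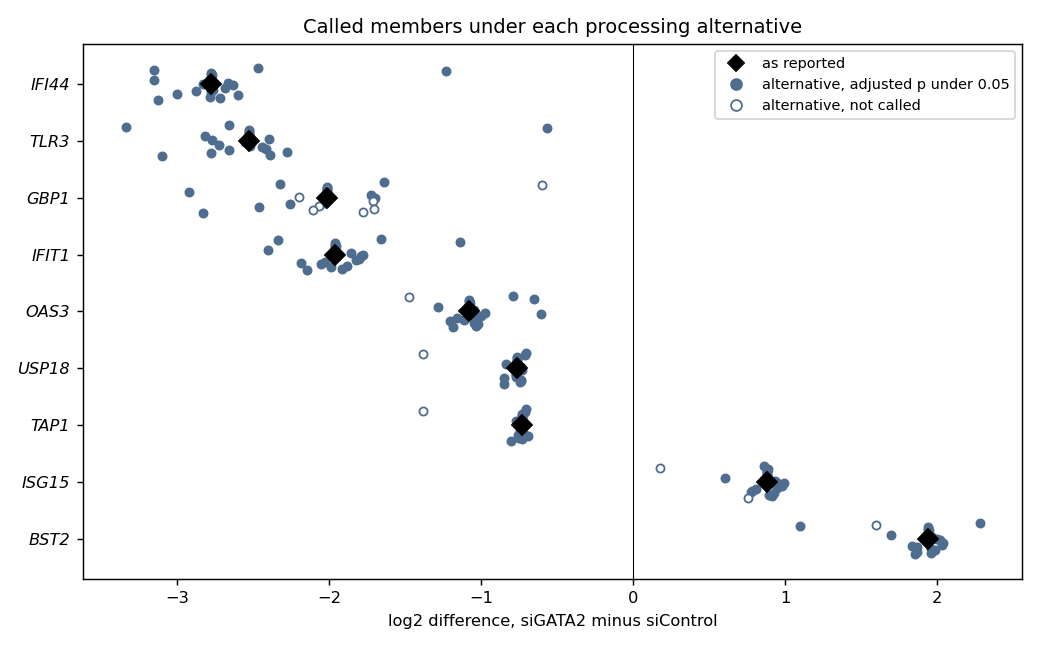
Log2 difference (x axis) of the 9 called members (y axis) as reported (black diamonds) and under each alternative (circles, filled where the adjusted p was under 0.05). No circle crosses 0, and GBP1 has 9 open circles.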

How the data were processed

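Total RNA of LNCaP cells was measured on 8 one-colour arrays, grouped by their labels. The deposited scanner output gives a linear intensity per spot, made by the authors with Feature Extraction (11.0.1.1 in the submitters' processing notes). It comes with the authors' table of log2 values. On each array these values correlated with its own log2 processed signal at 0.985 to 0.9998. The methods name quantile normalization. From the deposited intensity, the background-corrected processed signals were averaged over unflagged spots on the log2 scale and quantile-normalized (limma 3.58.1, R 4.3.3). Each array carries flags for probes well above background, which stand in place of depth, and the number of arrays limits the precision. Probes were named through RefSeq accessions (assembly GRCh38.p14, names only). Unannotated probes and those whose log2 mean was under 3 were dropped, and a gene was read from its brightest probe, which left 28850 genes. Groups were compared with lmFit and eBayes and Benjamini-Hochberg adjustment, with thresholds of 0.05 and 2-fold. On simulated data made from these arrays (28730 genes) the test recovered 49% of 2-fold and 75% of 4-fold changes, with 1.59% of calls false. The simulation drew independent noise for each gene and array and changed only 100 genes at each size. Shifts that arrays share and the larger share of genes called here were not simulated. These percentages therefore need not hold for the real arrays. Normexp on the median signal, with an offset of 50, shrinks the differences of dim probes by construction.

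The members, lists and alternatives were chosen with earlier results of these data known. Members called with a 2-fold change, RNA sensors and STAT and IRF factors have their value on every array, and OAS2, ISG15, USP18, TAP1, GBP2 and TAP2 were added for the comparison within families after their values were seen. Outside the members, GATA2, JAK1 and the 2 called genes with the largest fall and rise of each list were named, less some genes that are not reported here. Arrays with the same replicate number were not treated as pairs, except in the alternative with replicate number as a block. Proteins of the families were not compared here.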

Additional observations from a re-analysis of the deposited data

Results flagged for a closer look

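In 3 of 70 groups of 4 arrays examined, 1 array stood apart from the other 3 by most of the range of its group, and chance gives this in about 1 of 20 groups. Each time it was siControl array 1, the lowest of its group. For USP18 it read 11.22 against 11.54 to 11.56 on the other siControl arrays, and the gap took a share of 0.94 of the range. For OAS3 it read 6.88 against 7.35 to 7.43 (share 0.85), and for IFI35 it read 7.95 against 8.23 to 8.29 (share 0.829, at the critical value). Without this array OAS3 and USP18 were still called lower.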

How the results depend on the processing

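The counts of members called depended on the scaling and the weighting of the arrays more than the directions did. The main counts were 7 lower and 2 higher. Scaling to the 75th percentile gave 6 higher, beside 17.5% of all genes. Scaling to the E1A probes gave 0 higher and 5 lower (0.489% and 6.59% of all genes), with the member median at -0.69. The member median, -0.28 as reported, was -0.01 with the 75th percentile and -0.12 with normexp. The median of all genes moved from 0.09 to 0.26 and -0.43 under these scalings, and siControl array 1 read 11.1 over the E1A probes against 13.5 to 13.8 on the other arrays. The number called higher was 4 with the stricter filter on dim probes, with an intensity trend and with the replicate block (8 lower). Of all genes, 14.1%, 13.1% and 11.7% were called higher in these settings, and 12.9% lower with the replicate block. The number of members called higher was 6 with title letter as a random block (18.5% of all genes). With the 2 sets of title letters as a block it was 8 (24.9% of all genes). Array weights gave 18 lower and 8 higher, beside 26.1% and 27.9% of all genes. GATA2 stood at 1.102 with array weights (limma adjusted p = 0.00194) and at 0.47 with the block by letter groups. With siControl arrays 2 and 4 only, 11 members were lower and 1 was higher, beside 12.9% and 9.37% of all genes. Leaving out 1 array at a time gave 6 to 9 members lower, 2 to 4 higher and a median of -0.40 to -0.20. Of all genes, 11.2% to 15.5% were then lower and 8.98% to 13.9% higher.

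For the other genes of the pathway, 22 lower and 19 higher became 31 higher with 75th percentile scaling (17.5% of all genes higher), 9 lower and 0 higher with E1A scaling (6.59% and 0.489%), 41 and 31 with array weights (26.1% and 27.9%), 37 higher with the block by letter groups (24.9%) and 12 higher with siControl arrays 2 and 4 only (9.37%). The cause of these shifts was not tested. Correlations of the deviations of arrays with the same number ran from -0.31 to 0.54, which cannot settle whether arrays were paired. Title letters B and F each occur in both groups, on arrays with different numbers.

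Of 366 recomputed values of called members, sensors and factors, 330 kept their side of the threshold, 15 lost a call, 21 gained one and 0 reversed a call, and 4 uncalled values changed sign. Of 125 recomputed differences of neighbouring pairs 7 moved by over 1 SD, and 0 changed sign. Naming probes by a gene name column was not run, since the array files used hold RefSeq accessions in its place.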
